A study of Macaca fascicularis with 48 samples.

Results

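Cervical dorsal root ganglia, the clusters of sensory nerve cell bodies beside the cervical spinal cord, were compared between cynomolgus monkeys (Macaca fascicularis) given GS-8873 and monkeys given none. The 4 treated and 4 control libraries with that tissue in their titles make up 8 of the 48 libraries of the study. Treated animals received 6 mg/kg/day by oral gavage for 13 weeks, and control animals received 0 mg/kg/day over the same time. In the labels, GS-8873 is named as a compound against messenger RNAs of hepatitis B virus. Each group held 2 males and 2 females, and their ages are not given in the sources used here. Each library came from a separate animal. By the animal identifiers in the labels, 2 of the 4 treated animals and all 4 control animals also gave lumbar ganglia. The study's design text counts 4 treated animals, while the labels name 6 over all tissues. A ganglion was read as bulk tissue, so a lower level of a neuronal transcript can come from fewer neurons or from less RNA per neuron, and these cannot be told apart here.

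A dorsal root ganglion holds the cell bodies of sensory neurons, each wrapped in satellite glial cells, together with Schwann cells along the axons, a connective tissue sheath, vessels and resident macrophages. The axons are long, and the cell body supplies them with neurofilaments, which set axon calibre, with microtubules, and with the kinesin and dynein motors that carry vesicles and organelles along those microtubules. Large-diameter neurons, which report touch and body position, hold the most neurofilament, while small-diameter neurons include the nociceptors, which report pain and temperature.

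The libraries held 43200952, 41178887, 42234331 and 35453786 counts in treated animals and 47524284, 52889142, 49235749 and 43904337 in control animals, where the mates of a pair were counted singly. Levels below are in CPM, counts relative to library size, scaled by TMM, a factor that evens out composition between libraries. Markers of sensory neurons and of Schwann cells were present in all 8 libraries: SNAP25, a synaptic membrane protein of neurons, stood between 848 and 2013 CPM, and the summed markers of peripheral myelin and Schwann cells between 4940.1 and 13845 CPM. OLIG2, which marks oligodendrocytes of the central nervous system, stood at 0.0220 CPM or less, and MOG, a central myelin protein, at 2.74 CPM or less. MOBP, another gene of the central myelin and oligodendrocyte list, stood between 4.52 and 10.4 CPM. The summed level of the 11 genes of that list ran from 134 to 198 CPM in treated and from 103 to 219 CPM in control libraries. ADIPOQ, an adipocyte gene, stood at 31.8 CPM in treated 1 and 32.6 CPM in control 4, against 2.45 CPM or less in the other 6 libraries. A pair of libraries stood apart. Treated 4 had 23.0% of its counts from the mitochondrial genome, against 6.97% to 13.4% in the other 7 libraries, and a summed level of 33 ribosomal protein genes of 33054 CPM, against 5847 to 9676 CPM. In treated 4 genes with up to 1812 bases of exon lay a median of 0.87 log2 units above the other treated libraries, and genes with 4720 bases or more lay at -0.46. Control 4 had the highest summed fibroblast and perineurial markers, at 17690.3 CPM against 3503 to 7471 CPM in the other controls, and the lowest pan-sensory neuron markers among controls, at 7666 CPM against 12516 to 14090.0 CPM. Of 22 such measures, 0 passed an exact two-sided permutation test after Benjamini-Hochberg adjustment (smallest adjusted p 0.419). The smallest raw p that 4 against 4 allows is 0.0286. At that floor a measure with fully separate groups could not pass the adjustment alone, so the result does not show that library makeup was alike. Some results that rest on these libraries are given with and without them, and the others with all 8 libraries only.

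**Figure D1:**
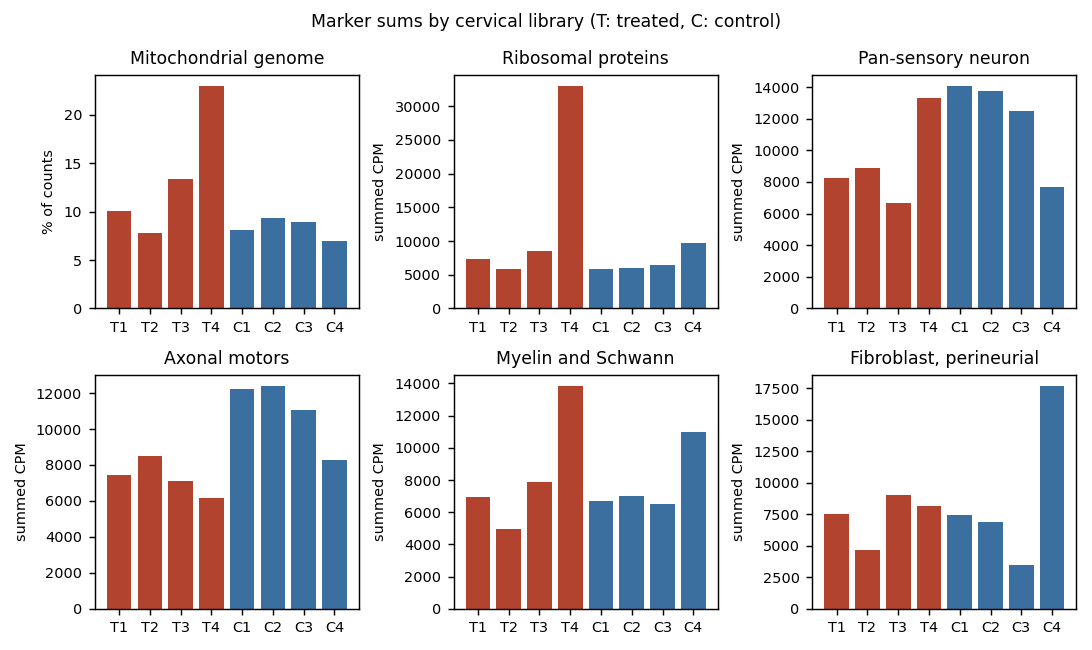
Library makeup in the 4 treated (T1 to T4) and 4 control (C1 to C4) cervical libraries: the percent of counts from the mitochondrial genome, and the summed TMM-scaled CPM of 5 marker or gene lists. Treated 4 stands highest in mitochondrial share (23.0%) and ribosomal proteins (33054 CPM), and control 4 in fibroblast and perineurial markers (17690.3 CPM).

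The genes nearest to the threshold were lower in treated ganglia and were led by CCNI, CADM3 and NEFH, whose fitted levels stood at 0.367, 0.393 and 0.243 of the control level. Of 14173 genes tested with edgeR's quasi-likelihood test with sex as a covariate, 0 passed a Benjamini-Hochberg adjusted p of 0.05 (0.00%), and CCNI came nearest at 0.109. At an unadjusted p under 0.05 there were 1042 genes, 719 of them lower in treated ganglia (5.07% of the genes tested) and 323 higher (2.28%), where 708.65 in all are expected with no effect. In 465 genes all 4 treated libraries lay below all 4 controls (3.28%), and in 312 they lay above (2.20%). With total counts in place of TMM the shares were 1.496% lower and 4.90% higher, so the balance between directions depends on the scaling. DESeq2 called 223 genes, 203 lower (1.43%) and 20 higher (0.141%), while limma voom called 0, with 1057 at an unadjusted p under 0.05. A fit of all 16 ganglion libraries, in which the cervical contrast shares its estimate of spread with the lumbar libraries, called 32 genes, all lower (0.220%), and all 32 were among the DESeq2 calls. That fit counts the regions of an animal as independent libraries, although 6 animals gave both and the correlation within animals in limma was 0.689. Without treated 4 there were 2 calls (0.0140%), and the groups were separate in 5.38% of genes with lower and 4.55% with higher treated libraries. Without treated 4 and control 4, a choice made after the data were seen, edgeR called 938 genes, 828 lower (5.82%) and 110 higher (0.773%), and 189 of the 223 DESeq2 calls were among them. Every edgeR log2 fold change below is treated over control ± SE from the fit of all 8 libraries unless it is said to be otherwise.

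CCNI, which codes for cyclin I, a cyclin abundant in neurons (chromosome 5, 57424237 to 57453477, Macaca_fascicularis_5.0 build, as are all positions here), had 121, 124, 99.3 and 99.4 CPM in treated libraries 1 to 4, against 325, 310.1, 318 and 249.7 CPM in controls 1 to 4. The groups lay far apart, with every treated library at less than the lowest control. The log2 fold change was -1.44 ± 0.15, with an edgeR adjusted p of 0.109, or 0.0453 without treated 4. CADM3, a neuronal cell adhesion molecule of axons (chromosome 1, 92505626 to 92523290), had 645, 653, 525 and 522 CPM in treated libraries and 1656, 1689, 1563 and 1066 CPM in controls. Again no treated library reached a control, and control 4 was the lowest of its group. The log2 fold change was -1.35 ± 0.18 (edgeR adjusted p = 0.249).

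Neurofilament transcripts were lower in treated ganglia, most of all that of the heavy subunit. NEFH (chromosome 10, 21996204 to 22006561) had 1177, 751, 538 and 595 CPM in treated libraries, against 4588, 4831, 2546 and 1379 CPM in controls. All treated libraries lay below all controls, although controls 3 and 4 stood well below controls 1 and 2. Its log2 fold change was -2.04 ± 0.28 (edgeR adjusted p = 0.249), and the DESeq2 adjusted p was 2.93e-09. NEFL, the light subunit, had 4533, 3348, 3418 and 3396 CPM in treated libraries and 9259.7, 9682, 6683 and 3605 CPM in controls. Treated 1 lay above control 4, so the groups overlapped, and the log2 fold change was -0.93 ± 0.28 (edgeR adjusted p = 0.492). NEFM, the medium subunit, averaged 5081 ± 1931 CPM in treated and 9426 ± 3716 CPM in control libraries (SD, n = 4 each), with -0.84 ± 0.34. INA, the internexin that assembles with them, gave -0.26 ± 0.34, with 545 CPM in treated 2 and 209 to 246 CPM in the other treated libraries; without control 3 the value turned to 0.077. The list of 4 tested neurofilament genes had 4 negative values with a median of -0.89, where 6236 of all 14173 genes were negative with a median of 0.051. Without treated 4 and control 4 the median was -1.03.

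**Figure D2:**
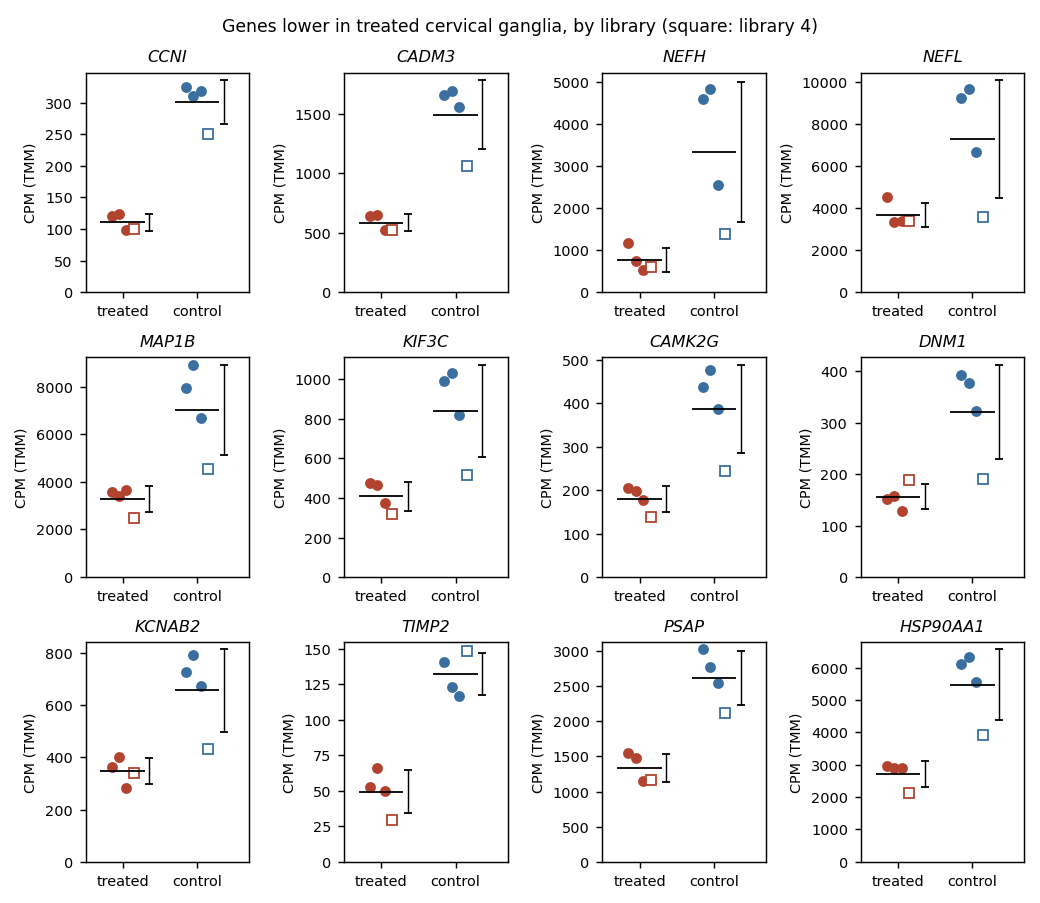
TMM-scaled CPM of 12 genes lower in treated cervical ganglia, with the 4 treated libraries left of the 4 controls in each panel, the group mean as a line and the SD as a bar; squares mark library 4 of each group. NEFH stands at 538 to 1177 CPM in treated and 1379 to 4831 CPM in control libraries, and the groups overlap in NEFL. The 12 genes were chosen from the named genes, and overlapping ones such as P2RX3 and KIF1A are not shown. Of all genes tested, 3.28% were lower with no overlap, so the panels do not show how common separation is.

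Microtubule proteins showed the same direction. MAP1B, which binds and stabilises microtubules in axons (chromosome 6, 70253955 to 70357894), had 3574, 3422, 3648 and 2475 CPM in treated libraries and 7939.6, 8903, 6679 and 4529 CPM in controls. The highest treated library was below the lowest control, control 4. Its log2 fold change was -1.07 ± 0.24 (edgeR adjusted p = 0.348). MAP1A, its relative in mature neurons, averaged 902 ± 213 CPM in treated and 1745 ± 593 CPM in control libraries (-0.93 ± 0.21), with overlap through control 4. DPYSL2, which binds tubulin dimers, gave -0.80 ± 0.21 without overlap, and STMN2, a stathmin of growing and mature axons, gave -0.64 ± 0.21 with overlap through control 4. Of 18 tested members of this list 15 were negative (median -0.49), and 2 were lower with no overlap between groups, against 3.28% of all genes tested.

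Axonal transport motors were negative in 22 of 23 tested genes, with a median of -0.60, and 4 of the 23 were lower with no overlap between groups, against 3.28% of all genes tested. Their summed level was 7426 CPM, 8499.9 CPM, 7096 CPM and 6159.5 CPM in treated libraries 1 to 4, against 12232 CPM, 12397 CPM, 11043 CPM and 8261 CPM in controls 1 to 4. Treated 2 lay above control 4 and every other treated library lay below all controls (exact two-sided permutation p = 0.0571, or 0.419 adjusted over the 22 measures, n = 4 each). KIF3C, a kinesin-2 subunit, had 475, 463, 375 and 321 CPM in treated libraries and 989.8, 1033, 817 and 517 CPM in controls. The groups did not overlap, and the log2 fold change was -1.02 ± 0.19 (edgeR adjusted p = 0.303). MAPK8IP3, the scaffold that links cargo to kinesin-1, gave -0.89 ± 0.17, with treated 1 just above control 4; its exons overlap NME3, and reads were not counted by strand. KIF1A, which carries synaptic vesicle precursors, averaged 211 ± 116 CPM in treated and 489.8 ± 153 CPM in control libraries (-1.32 ± 0.34). Its lowest level, 63.2 CPM, was in treated 4, and without treated 4 the log2 fold change was -1.05. KIF21A, a kinesin that acts on microtubule growth, gave -0.88 ± 0.24, with 245 CPM in treated 4 and 476 to 487 CPM in the other treated libraries.

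The spectrin and ankyrin skeleton under the axon membrane was negative in 13 of 13 tested genes (median -0.47), and 3 were lower with no overlap, against 3.28% of all genes tested. ANK1, an ankyrin that ties membrane proteins to spectrin, averaged 133 ± 51.9 CPM in treated and 259 ± 66.7 CPM in control libraries, a log2 fold change of -1.01 ± 0.26 (edgeR adjusted p = 0.382). Its control 4 value of 159 CPM lay far below the other controls at 286 to 299 CPM. CNTN1 and CNTNAP1, partners at the junctions beside the nodes of Ranvier, gave -0.89 ± 0.27 and -0.84 ± 0.24.

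Of 23 tested neuronal adhesion genes 17 were negative (median -0.22), and without treated 4 there were 13 (median -0.064). CNTN2, a contactin of axons, had 534, 593, 340.5 and 379 CPM in treated libraries and 1042, 1110.2, 891 and 685 CPM in controls. The groups were separate, and the log2 fold change was -1.03 ± 0.17 (edgeR adjusted p = 0.249). L1CAM, an adhesion molecule for axon growth and bundling, averaged 330.5 ± 118 CPM in treated and 600.1 ± 117 CPM in control libraries (-0.92 ± 0.21), with treated 2 above control 4.

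Genes of the synaptic vesicle and of endocytosis were negative in 36 of 38 tested members, with a median of -0.59, or -0.73 without treated 4 and control 4. DNM1, the neuronal dynamin that cuts off endocytic vesicles, had 152, 157, 128 and 188 CPM in treated libraries and 393, 377, 323 and 191 CPM in controls. Treated 4 and control 4 were nearly level, while every other control stood well above every treated library. The log2 fold change was -1.01 ± 0.24 (edgeR adjusted p = 0.348). ATP6V0A1, a subunit of the proton pump that acidifies vesicles, gave -0.72 ± 0.16.

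Calcium signalling genes were negative in 22 of 24 tested members (median -0.34), and 6 of the 24 had no overlap, all lower, against 3.28% of all genes tested. CAMK2G, a kinase activated by calcium, had 206, 198, 177 and 138 CPM in treated libraries and 438, 476, 387 and 244 CPM in controls. Control 4 was the lowest control and still above every treated library. The log2 fold change was -1.09 ± 0.19 (edgeR adjusted p = 0.290). NCALD, a neuronal calcium sensor, gave -1.06 ± 0.24, and PPP3CB, a catalytic subunit of the phosphatase calcineurin, gave -0.93 ± 0.21. None of these 3 overlapped between groups.

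Ion channel genes did not all share a direction. KCNAB2, an auxiliary subunit of Kv1 potassium channels, had 363, 401, 284 and 342 CPM in treated libraries and 729, 794, 674 and 431 CPM in controls. The groups were separate, and the log2 fold change was -0.91 ± 0.19 (edgeR adjusted p = 0.348); its exons overlap NPHP4. KCNQ3, a potassium channel subunit that limits repeated firing, gave -1.10 ± 0.27 at 3.19 ± 0.52 CPM in treated and 6.85 ± 1.29 CPM in control libraries (SD, n = 4 each). Of 27 tested potassium channel genes 17 were negative (median -0.23), and 4 had no overlap, all lower, against 3.28% of all genes tested. Without treated 4 and control 4 the median was -0.38. Of 13 tested sodium channel genes 9 were negative (median -0.28, or -0.15 without treated 4). SCN4B, an auxiliary sodium channel subunit, averaged 27.1 ± 5.54 CPM in treated and 57.5 ± 20.5 CPM in control libraries (-1.04 ± 0.26). SCN3A, a sodium channel subunit abundant in embryonic neurons, went the other way with 4.06, 6.67, 7.08 and 6.63 CPM in treated libraries and 3.45, 3.13, 2.69 and 2.61 CPM in controls. Every treated library lay above every control, with treated 1 close to control 1, and the log2 fold change was 1.04 ± 0.28 (edgeR adjusted p = 0.416). HCN2, a channel of the pacemaker current, gave -0.71 ± 0.36 with all libraries and -1.27 without treated 4 and control 4.

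Among markers of neurons in general, 12 of 15 tested genes were negative (median -0.41), and 14 of 15 were negative without treated 4 (median -0.61). Their summed level ran from 6693 to 13332 CPM in treated libraries and from 7666 to 14090.0 CPM in controls, with treated 4 the highest treated and control 4 the lowest control. SNAP25 averaged 939 ± 74.4 CPM in treated and 1619.7 ± 537 CPM in control libraries (-0.75 ± 0.28), and control 4 was below every treated library. Without treated 4 and control 4 its log2 fold change was -1.05. RET, the receptor of GDNF family ligands in many sensory neurons, had 365, 438, 231 and 249.9 CPM in treated libraries and 779, 715, 742 and 481 CPM in controls. The groups were separate, and the log2 fold change was -1.12 ± 0.20 (edgeR adjusted p = 0.294). DRGX, a homeobox gene of sensory neurons, gave -0.76 ± 0.24. Whether the levels of neuronal markers bear on the lower cytoskeletal and vesicle genes was not tested.

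Nociceptor markers were negative in 16 of 23 tested genes (median -0.32). P2RX3, an ATP receptor of nociceptors (chromosome 14, 16252164 to 16287150), had 134, 97.9, 62.9 and 60.2 CPM in treated libraries and 221, 217, 138 and 123 CPM in controls. Treated 1 lay above control 4, and the log2 fold change was -1.0 ± 0.15 (edgeR adjusted p = 0.249). The nociceptor sodium channels SCN10A and SCN9A gave -0.82 ± 0.32 and -0.67 ± 0.27, or -0.57 and -0.45 without treated 4. SCN10A stood at 109 CPM in treated 4 and 236 to 429 CPM in the other treated libraries. Markers of large-diameter and mechanosensory neurons were split, with 11 of 22 negative and a median of 0.016, or 15 of 22 and -0.20 without treated 4 and control 4. SPP1, osteopontin, which marks proprioceptors in mouse, averaged 712 ± 249 CPM in treated and 1714 ± 607 CPM in control libraries (-1.27 ± 0.38). PVALB, a calcium-binding protein of proprioceptors, had 107, 159, 204 and 941 CPM in treated libraries and 127, 134, 137 and 55.6 CPM in controls. Treated 4 was far above and control 4 below the rest, and the log2 fold change of 1.30 ± 0.71 became 0.19 without that pair.

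Receptors for transmitters were negative in 15 of 25 tested genes (median -0.28, or -0.10 without treated 4). HTR3A, a serotonin-gated channel, had 426, 806, 308 and 500.5 CPM in treated libraries and 1285, 1176, 1246 and 855 CPM in controls. All treated libraries lay below all controls (-1.19 ± 0.28; edgeR adjusted p = 0.348). GRIN1, the shared subunit of NMDA receptors, gave -0.95 ± 0.25; its exons overlap LRRC26. Of 15 tested receptors of neurotrophins and GDNF family ligands 10 were negative (median -0.18), and without treated 4 there were 7 (median 0.0055). NGFR, the p75 neurotrophin receptor of neurons and Schwann cells, averaged 323 ± 93.9 CPM in treated and 616 ± 93.7 CPM in control libraries (-0.93 ± 0.21) with no overlap. SORCS1, a sorting receptor, was higher at 176 ± 16.2 CPM in treated and 131 ± 15.1 CPM in control libraries (0.44 ± 0.15), also with no overlap.

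Several of the genes nearest to the threshold code for secreted, membrane or signalling proteins. TIMP2, an inhibitor of metalloproteinases (chromosome 16, 76201952 to 76226242), had 52.9, 65.7, 50.0 and 29.2 CPM in treated libraries and 141, 123, 117 and 149 CPM in controls. Here control 4 was the highest library, and the groups were well apart (-1.45 ± 0.23; edgeR adjusted p = 0.249). Of the 20 tested TIMP, MMP and ADAMTS genes 14 were negative (median -0.099), or 10 without treated 4 (median 0.042). TIMP2 was the only 1 of the 20 without overlap, near the share of 3.28% of all genes tested that were lower without overlap. MXRA7, a membrane protein linked to matrix remodelling, averaged 60.7 ± 3.57 CPM in treated and 126 ± 16.1 CPM in control libraries (-1.06 ± 0.15). QSOX1, which forms disulphide bonds in secreted proteins, averaged 96.1 ± 13.2 CPM in treated and 181 ± 9.60 CPM in control libraries (-0.92 ± 0.14). TNFRSF21, the death receptor DR6, had 194, 179, 144 and 134 CPM in treated libraries and 352, 360.5, 372 and 299.9 CPM in controls. The groups overlapped in none of MXRA7, QSOX1 and TNFRSF21, and the log2 fold change of TNFRSF21 was -1.10 ± 0.16 (edgeR adjusted p = 0.249). PI4KA and PIP5K1C, kinases of phosphoinositide synthesis, gave -0.95 ± 0.15 and -1.04 ± 0.18. CTIF, a factor of cap-dependent translation, gave -1.13 ± 0.19, and SEZ6L, a neuronal membrane protein, gave -1.17 ± 0.19. RHOQ, a small GTPase of membrane traffic, gave -1.20 ± 0.18, and its exons overlap PIGF. FAM131B gave -1.04 ± 0.16. The groups were also separate in these 6 genes.

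Protein folding and disposal genes held further abundant members. HSP90AA1, the inducible cytosolic chaperone HSP90 alpha, had 2944, 2900.2, 2906 and 2119 CPM in treated libraries and 6094, 6318, 5568 and 3903 CPM in controls. The highest treated library was well below the lowest control (-1.0 ± 0.22; edgeR adjusted p = 0.348). Its constitutive relative HSP90AB1 gave -0.50 ± 0.19 with overlap, and the co-chaperone DNAJA1 gave -0.54 ± 0.16 without. Of 24 tested heat shock genes 15 were negative (median -0.19). The proteasome and ubiquitin list had 15 of 33 negative values and a median of 0.063. Without treated 4 it had 32 of 33 and -0.27. PSMD1 and PSMD2, large subunits of the proteasome cap, gave -0.62 ± 0.16 and -0.66 ± 0.19, and UBA1, the main ubiquitin-activating enzyme, gave -0.39 ± 0.16. In none of these 3 did the groups overlap, and the exons of UBA1 overlap those of CDK16.

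Lysosomal genes were negative in 17 of 26 tested members (median -0.17), and 5 of the 26 were lower with no overlap, against 3.28% of all genes tested. Without treated 4 the median was -0.28. PSAP, the precursor of the saposins that help to break down sphingolipids, had 1547, 1474, 1157 and 1161 CPM in treated libraries and 3034, 2781, 2541 and 2120.3 CPM in controls. The groups were separate (-0.98 ± 0.17; edgeR adjusted p = 0.290). LAMP1, a protein of the lysosomal membrane, averaged 109 ± 9.17 CPM in treated and 187 ± 15.4 CPM in control libraries (-0.78 ± 0.14). CTSB, the protease cathepsin B, averaged 562 ± 81.3 CPM in treated and 877 ± 61.7 CPM in control libraries (-0.65 ± 0.17), and its exons overlap those of FDFT1. LAMP1 and CTSB also had no overlap between groups.

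Without treated 4 and control 4, the values of the leading lower genes stayed near those with all libraries. The edgeR log2 fold change was then -1.46 for CADM3, -2.29 for NEFH, -1.16 for MAP1B and -1.14 for KIF3C. It was -1.35 for DNM1, -1.18 for CAMK2G, -1.10 for KCNAB2, -1.20 for TIMP2, -1.06 for HSP90AA1 and -1.03 for PSAP. The edgeR adjusted p of these 10 genes with 3 animals per group lay between 0.00864 and 0.0126. In that setting edgeR called 828 genes lower, 5.82% of all genes tested. The 10 genes were named from these same libraries, and the pair was left out after the data were seen. Their adjusted p are therefore no separate support.

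**Figure D3:**
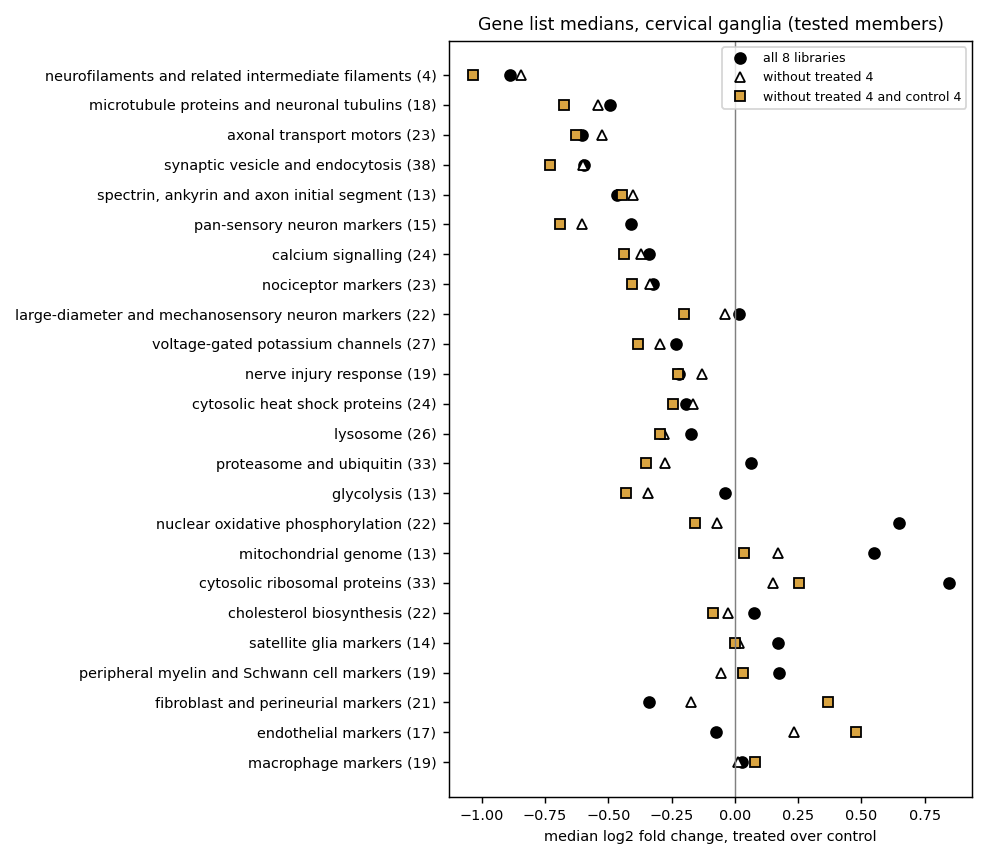
Median log2 fold change (treated over control) of the tested members of 24 gene lists in cervical ganglia, with all 8 libraries (circles), without treated 4 (triangles) and without treated 4 and control 4 (squares); the number of tested members stands in brackets. Neurofilament, motor and vesicle lists lie at -0.89 to -0.59 with all libraries and stay negative, while ribosomal proteins shift from 0.84 to 0.25 and fibroblast markers from -0.34 to 0.37.

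Genes that sensory neurons induce after axon injury were measured as a list. ATF3, a transcription factor induced by axon injury, had 5.80, 4.77, 6.13 and 5.77 CPM in treated libraries and 8.65, 11.7, 10.4 and 6.43 CPM in controls. The treated libraries all lay below the controls, and the log2 fold change was -0.72 ± 0.26 (edgeR adjusted p = 0.574). GAP43, a growth cone protein, gave -0.27 ± 0.19 with overlap. GAL, a neuropeptide induced by axotomy, gave 0.35 ± 0.42 with all libraries and -0.13 without treated 4. STAT3, a transcription factor of the injury response, averaged 218 ± 54.2 CPM in treated and 316 ± 38.6 CPM in control libraries (-0.56 ± 0.16). Of 19 tested injury response genes 13 were negative (median -0.22, or -0.13 without treated 4). At an unadjusted p under 0.05, 3 of the 19 were lower and 0 higher, against 5.07% and 2.28% of all genes tested. In the list of axon degeneration and NAD survival genes 14 of 23 were negative (median -0.20). SARM1, the NADase that drives axon breakdown, averaged 45.2 ± 6.79 CPM in treated and 88.5 ± 27.8 CPM in control libraries (-0.94 ± 0.20; edgeR adjusted p = 0.348), with treated 1 and 2 above control 4. MAPK10, the neuronal JNK3 kinase, gave -0.50 ± 0.18, also with overlap through control 4.

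The named genes higher in treated ganglia were mostly of low level. CHAC2, which breaks down glutathione (chromosome 13, 56311463 to 56319424), had 22.2, 23.6, 18.0 and 23.9 CPM in treated libraries and 12.6, 12.4, 11.3 and 9.51 CPM in controls. The groups were separate, and the log2 fold change was 0.94 ± 0.18 (edgeR adjusted p = 0.322). NRSN2, a vesicle membrane protein of neurons (chromosome 10, 62271458 to 62281546), had 14.4, 4.11, 1.31 and 6.85 CPM in treated libraries and 0.787, 0.461, 0.529 and 0.527 CPM in controls. The treated libraries spread widely but all lay above the controls, with 3.42 ± 0.66 (edgeR adjusted p = 0.318). SYT17, a synaptotagmin relative of membrane traffic, had 22.6, 33.1, 27.8 and 25.2 CPM in treated libraries and 17.6, 13.6, 17.2 and 14.6 CPM in controls. Its log2 fold change was 0.79 ± 0.20 with no overlap. RSPO4, which strengthens Wnt signalling, gave 1.95 ± 0.48 at 1.84 ± 0.810 CPM in treated and 0.455 ± 0.146 CPM in control libraries. RASL12, a small GTPase relative, gave 0.69 ± 0.17, and its exons overlap SLC51B. AFMID, an enzyme of tryptophan breakdown, gave 1.17 ± 0.32, and its exons overlap TK1. CCDC28B gave 1.59 ± 0.40 with all libraries and 1.08 without treated 4, where it stood at 16.3 CPM. COL22A1, a collagen of tissue junctions, gave 2.88 ± 0.78, and treated 2 at 31.2 CPM stood far above the other treated libraries at 2.61 to 4.29 CPM. CD5L, a protein secreted by macrophages, had 2.47, 17.3, 47.5 and 25.2 CPM in treated libraries and 1.35, 0.802, 3.24 and 9.97 CPM in controls, with overlap (2.81 ± 0.66). The 19 tested macrophage markers had 10 positive values and a median of 0.027. RUNX2, a transcription factor on the list of non-myelinating and repair Schwann cells, gave 0.48 ± 0.19 with no overlap.

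**Figure D4:**
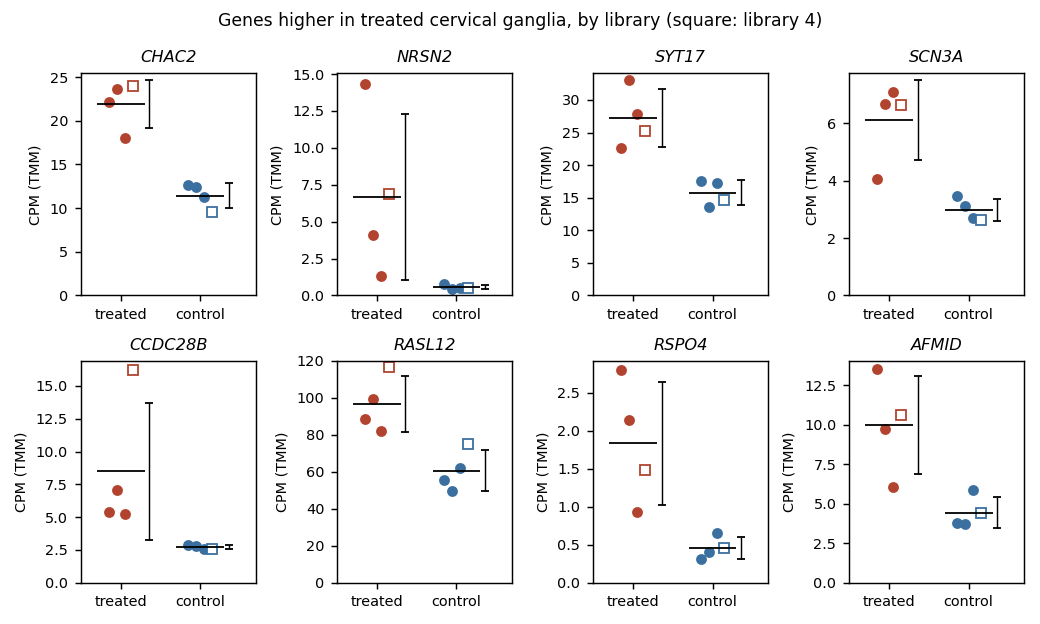
TMM-scaled CPM of 8 genes higher in treated cervical ganglia, with the 4 treated libraries left of the 4 controls in each panel, the group mean as a line and the SD as a bar; squares mark library 4. The 8 genes were chosen from the named genes and all have separate groups, while overlapping ones such as CD5L are not shown. Of all genes tested, 2.20% were higher with no overlap, so the panels do not show how common separation is. Relative to the group mean, the treated spread is widest in NRSN2 (1.31 to 14.4 CPM).

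A set of lists had values that moved with treated 4. The cytosolic ribosomal protein genes were positive in 33 of 33 tested members with a median of 0.84. None had separate groups, against 3.28% lower and 2.20% higher of all genes tested. Without treated 4 the median was 0.15, with 3 of 33 negative. Without treated 4 and control 4 it was 0.25, with 31 of 33 positive. In lumbar ganglia 1 of 33 was negative (median 0.32). The 13 genes of the mitochondrial genome had 11 positive values and a median of 0.55, against 0.17 without treated 4. Nuclear genes of oxidative phosphorylation were positive in 20 of 22 with a median of 0.65, and without treated 4 they were negative in 15 of 22 with a median of -0.072. The mitochondrial share of counts was 10.1%, 7.75%, 13.4% and 23.0% in treated libraries 1 to 4 and 8.14%, 9.38%, 8.88% and 6.97% in controls 1 to 4. The difference was 5.21 percentage points (exact two-sided permutation p = 0.143), or 2.05 without treated 4. Glycolysis genes had a median of -0.038, and of -0.34 without treated 4. PFKP, the platelet form of phosphofructokinase and a main form in brain, gave -0.77 ± 0.26, with 266 CPM in treated 4 and 145 to 197 CPM in the other treated libraries.

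The values of lists of non-neuronal cells moved with treated 4 and control 4. Satellite glia markers were positive in 12 of 14 (median 0.17), or in 7 of 14 both without treated 4 (median 0.014) and without treated 4 and control 4 (median 0.0014). Markers of peripheral myelin and Schwann cells were positive in 12 of 19 (median 0.17), in 8 of 19 without treated 4 (median -0.057) and in 12 of 19 without the pair (median 0.032). Markers of non-myelinating and repair Schwann cells were positive in 9 of 13 (median 0.13), or in 7 of 13 without the pair (median 0.21). Their summed level ran from 1765 to 2477 CPM in treated and from 2385 to 3022 CPM in control libraries. That sum holds NGFR (means of 323 CPM in treated and 616 CPM in control libraries) and L1CAM (330 and 600 CPM). Both are given above as genes of neurons too, so the sum does not stand for Schwann cells alone. Markers of fibroblasts and perineurial cells were negative in 17 of 21 (median -0.34), while without treated 4 and control 4 they were positive in 13 of 21 (median 0.37). FBLN2, a matrix protein of that list, gave -1.18 ± 0.46, with 219 CPM in control 4 and 49.5 to 118 CPM in the other controls. Endothelial markers had a median of -0.073, or 0.48 without the pair. ACKR1, a chemokine-binding receptor of venules, stood at 16.8 ± 9.79 CPM in treated and 36.9 ± 6.10 CPM in control libraries (-1.13 ± 0.42). It was the only 1 of 17 tested endothelial genes with separate groups, against 3.28% of all genes tested that were lower without overlap. The part of these cell types in the differences above was not tested.

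Of 22 tested cholesterol synthesis genes 8 were negative (median 0.075), and without treated 4 there were 12 (median -0.029), or 15 without treated 4 and control 4 (median -0.087). HMGCS1, an early enzyme of the pathway, gave -0.15 ± 0.21. SREBF2, the transcription factor that drives the pathway, averaged 166 ± 22.3 CPM in treated and 245 ± 11.4 CPM in control libraries (-0.57 ± 0.15), with no overlap. SC5D, a late enzyme of the pathway, was higher without overlap (0.27 ± 0.14). Of 14 tested fatty acid genes 11 were negative (median -0.20, or -0.11 without treated 4), and 4 of the 14 were lower at an unadjusted p under 0.05, against 5.07% of all genes tested. ACACA, the enzyme of malonyl-CoA synthesis, gave -0.55 ± 0.16, FASN, the fatty acid synthase, gave -0.56 ± 0.20, and SREBF1, their transcription factor, gave -0.50 ± 0.16.

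Genes of RNA tailing were also measured, since TENT4A and TENT4B, which extend poly(A) tails, and ZCCHC14, which binds them, are known to act on RNAs of hepatitis B virus. TENT4A had 10.9, 15.7, 14.3 and 3.32 CPM in treated libraries and 13.4, 11.1, 10.1 and 11.97 CPM in controls, and TENT4B had 14.5, 17.4, 15.4 and 4.32 CPM in treated libraries and 11.1, 12.7, 10.8 and 12.1 CPM in controls. Treated 4 was the lowest library for both genes. Their log2 fold changes were -0.10 ± 0.42 and 0.11 ± 0.38 with all libraries, and 0.21 and 0.41 without treated 4. ZCCHC14 gave -0.016 ± 0.19, with 48.1 CPM in control 4 against 30.5 to 32.7 CPM in the other controls. The 29 tested tailing and decay genes had 15 negative values and a median of -0.016, or 8 negative values and a median of 0.22 without treated 4 and control 4. Of the 29, 0 had separate groups, against 3.28% lower and 2.20% higher of all genes tested. Without treated 4, 2 of the 29 were higher with separate groups and 0 lower, against 4.55% and 5.38% of all genes. Without treated 4 and control 4, edgeR called 2 of the 29 higher and 0 lower, against 0.773% and 5.82% of all genes.

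Lumbar ganglia of the same dose groups gave more calls, and the difference between regions was tested directly. In lumbar ganglia, edgeR called 521 genes lower (3.65%) and 91 higher (0.638%) of 14267 tested. The difference of the treatment effect, cervical minus lumbar, was tested in limma with animal as a random block over 14535 genes, and 0 passed (0.00%), with 416 at an unadjusted p under 0.05. EdgeR without the block also called 0, with 89 at that level. Both counts lie below a share of 0.05 of the genes, the share expected with no difference. The 0 calls do not show that the effect was alike in both regions. All 4 control animals and 2 treated animals are shared between the regions, so the 2 sets of values are not independent. NEFH gave -2.04 ± 0.28 in cervical and -2.58 ± 0.32 in lumbar ganglia, a difference of 0.45 ± 0.42. CCNI gave -1.44 ± 0.15 in cervical and -1.26 ± 0.10 in lumbar ganglia, and TIMP2 gave -1.45 ± 0.23 and -1.21 ± 0.093 in the same order of regions. P2RX3 gave -1.0 ± 0.15 in cervical and -0.78 ± 0.24 in lumbar ganglia, and SCN10A gave -0.82 ± 0.32 and -0.28 ± 0.33. Large-diameter neuron markers were negative in 11 of 22 in cervical ganglia, or 15 of 22 without treated 4 and control 4, and in 20 of 22 in lumbar ganglia.

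**Figure D5:**
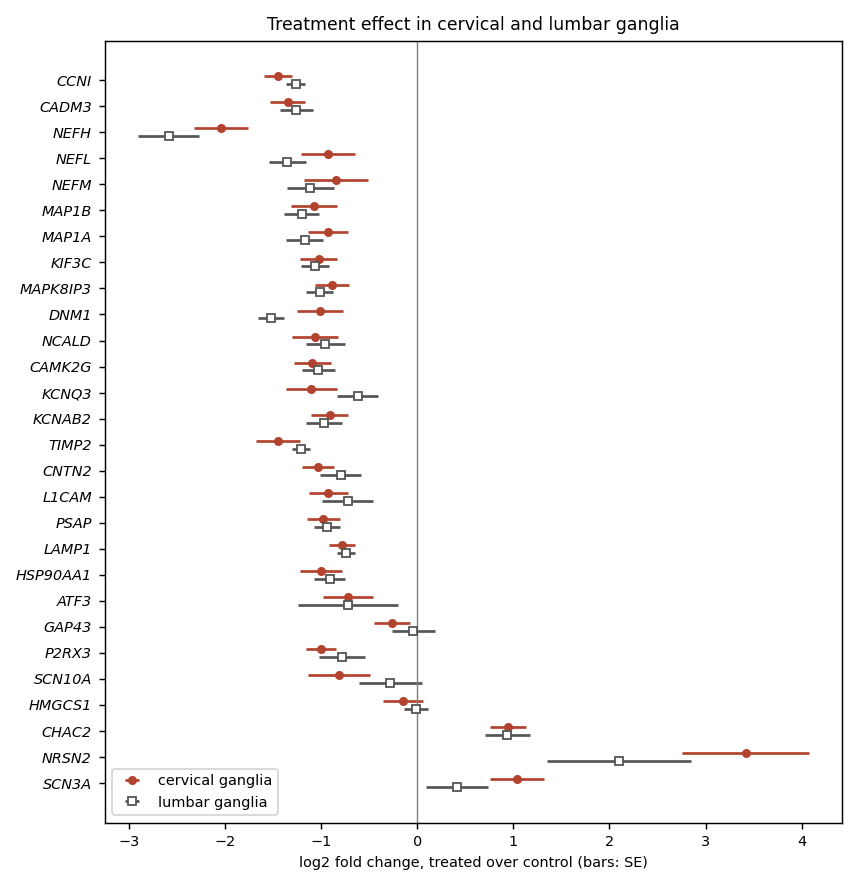
EdgeR log2 fold change (treated over control, bars SE) of 28 genes in cervical ganglia (filled circles) and lumbar ganglia (open squares), each region fitted alone with 4 treated and 4 control libraries. NEFH is the lowest point in both regions, at -2.04 in cervical and -2.58 in lumbar ganglia.

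The genes with the smallest p for the difference between regions were of low level. DRD3, a dopamine receptor, had 0.373, 0.428, 0.354 and 0.577 CPM in treated and 0.0437, 0.0401, 0 and 0.0439 CPM in control cervical libraries and the smallest unadjusted limma p for the difference, 0.000581. INHBB, an activin subunit, gave 0.094 ± 0.31 in cervical and -0.87 ± 0.23 in lumbar ganglia. AKAIN1, an inhibitor of kinase anchoring, gave 0.80 ± 0.30 and -0.31 ± 0.16, and RIPK4, a kinase, gave 0.94 ± 0.54 and -1.16 ± 0.36. RELT, a TNF receptor family member, gave 0.31 ± 0.29 in cervical and -0.72 ± 0.22 in lumbar ganglia. Each had a limma adjusted p of 1.00 for the difference. Values of INHBB and RELT turned to -0.022 and -0.071 in cervical ganglia without treated 4 and control 4.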

How the data were processed

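The 8 cervical ganglion libraries, 4 per group, were analysed as raw counts per gene name. RNAlater was the storage medium, RNA came from miRNeasy columns, and strand-specific mRNA libraries gave 50 bp pairs on a HiSeq 2500, per the labels. The authors made the deposited counts with featureCounts 1.4.6-p1 on Ensembl release 94 of the Macaca_fascicularis 5.0 build, per the file headers, after alignment by STAR (2.5.3a in the submitters' processing notes). The header command sets neither paired counting nor strand. Genes were filtered by filterByExpr and tested in R 4.3.3 by edgeR 4.0.16, TMM-scaled, with a robust quasi-likelihood fit, sex as covariate and Benjamini-Hochberg adjustment at 0.05. SE is the size of the log2 fold change over the root of F. The difference between regions was tested over 16 libraries in limma 3.58.1 voom with duplicateCorrelation (statmod 1.5.0). DESeq2 1.42.0, limma voom, other scalings and filters, dropping the sex term, a replicate block and leaving out libraries were the alternatives. All p values are two-sided. Fits were tested on simulated data with known changes.

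Of 16842 gene names, 422 Rfam entries and 140 names on more than 1 chromosome were not named in the text. Named genes are among the 15 smallest p in each direction with a mean of at least 1 CPM, up to 4 members with the smallest p of each of 51 lists, a short fixed set and, between regions, the 5 smallest p. Some of the genes this rule gives are not reported here. The gene lists, the rule and the comparison were chosen with earlier results of these data known. Totals of 35453786 counts and more per library keep counting error small beside the spread between animals for genes of high level. That does not hold for genes under 1 CPM, such as DRD3, whose levels rest on few reads. No within-group pair of libraries agreed within counting noise (chi-square per degree of freedom of at least 30.6).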

Additional observations from a re-analysis of the deposited data

Results flagged for a closer look

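In 20 of 230 groups of 4 that were looked at, the highest or lowest library lay far from the other 3 of its group by Dixon's 95% criterion, which chance alone meets in about 1 group in 20. The far library was control 4 in 8 of them and treated 4 in 6. Treated 4 had summed ribosomal proteins of 33054 CPM (next highest treated 8589 CPM), summed astrocyte markers, which satellite glia share in part, of 436 CPM (next 238 CPM), PVALB at 941 CPM (next 204 CPM) and CCDC28B at 16.3 CPM (next 7.06 CPM). It was low for HSP90AA1, at 2119 CPM (next 2900.2 CPM), and KIF21A, at 245 CPM (next 476 CPM). Other treated libraries stood out for COL22A1 (31.2 CPM in treated 2), INA (545 CPM in treated 2), NEFL (4533 CPM in treated 1), SCN3A (4.06 CPM in treated 1) and summed sympathetic neuron markers (48.4 CPM in treated 1, next 60.5 CPM).

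Control 4 was high for summed markers of peripheral myelin and Schwann cells, at 10965 CPM (next 6979 CPM), of pericytes and smooth muscle, at 1390.2 CPM (next 540.0 CPM), for ribosomal proteins, at 9676 CPM (next 6411 CPM), and for ZCCHC14, at 48.1 CPM. It was low for ANK1 (159 CPM), L1CAM (426 CPM), MAPK10 (205 CPM) and PVALB (55.6 CPM). DRD3 stood at 0 CPM in control 3 and at 0.0401 CPM or more in the other controls.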

How the results depend on the processing

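The count of genes past the threshold was 0 in the main edgeR analysis and also with limma voom, median-ratio size factors, no low-count filter, a floor of 1 CPM on the mean, the sex term dropped and total counts. It was 223 with DESeq2, 32 in the fit of 16 libraries and 938 without treated 4 and control 4, and 0 to 2 when single libraries were left out, with CCNI and CYB5R3 (named after its value was seen) called without treated 4. The cause was not tested. The replicate numbers did not pair the libraries: same-number correlations of deviations were -0.063, 0.043, -0.14 and -0.19, and the replicate block gave 0 calls with 909 at an unadjusted p under 0.05. Groups were separate in 3.28% of genes lower and 2.20% higher, or in 1.496% and 4.90% with total counts, 17.6% and 12.4% without treated 4 and control 4, and 3.47% to 8.93% and 3.06% to 6.35% with single libraries left out (most without control 4; without treated 2 6.44% and 4.51%), where fewer libraries make separation easier. The mitochondrial difference of 5.21 percentage points ran from 2.05 (without treated 4) to 7.14 (without treated 2, exact p = 0.0286) with single libraries left out and was 1.60 without treated 4 and control 4. The count for the difference between regions was 0 under every alternative run. Of the 93 genes checked by name, 56 passed in DESeq2, 15 in the fit of 16 libraries and 63 without treated 4 and control 4. Over all genes tested these settings called 223 of 14173, 32 of 14535 and 938 of 14233. Most of the 93 were named for a small p in these same libraries, so their higher shares are no separate support. Among the values of these 93 genes the sign turned in 19 of 1672. With single libraries left out, INA ran from -0.62 (without treated 2) to 0.077 (without control 3), GAL from -0.13 (without treated 4) to 0.60, TENT4A from -0.54 to 0.21 (without treated 4), TENT4B from -0.23 (without treated 3) to 0.41 (without treated 4), ZCCHC14 from -0.096 to 0.14 (without control 4) and INHBB from -0.078 (without control 4) to 0.32. Without treated 4 and control 4, GAL was -0.23, TENT4A 0.22, ZCCHC14 0.15, INHBB -0.022 and RELT -0.071. With total counts, TENT4A was 0.014 and ZCCHC14 0.042, and with the replicate block TENT4B was -0.0020.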

Other observations

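Further stress programmes had small list medians in treated cervical ganglia, as the heat shock proteins did (median -0.19). Genes of the unfolded protein response were negative in 13 of 18 members, at a median log2 fold change of -0.077, and in 8 of 18 without treated 4 and control 4 (median 0.012). Genes of the integrated stress response were positive in 12 of 17 (median 0.19, or -0.060 without the pair). Targets of NRF2, the transcription factor of the oxidative stress response, were negative in 9 of 16 (median -0.041) and in 14 of 16 without the pair (median -0.19). Immediate early genes were positive in 14 of 19 (median 0.20, or 0.21 without the pair), and clock genes in 9 of 16 (median 0.035, or -0.048 without treated 4).

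Voltage-gated calcium channel genes were negative in 13 of 18 (median -0.33, or -0.22 without treated 4). Interferon-stimulated genes were negative in 13 of 23 (median -0.056), or in 10 of 23 both without treated 4 (median 0.083) and without the pair (median 0.18), and T, B and NK cell markers were positive in 13 of 19 (median 0.18, or 0.29 without treated 4). Skeletal muscle markers were positive in 11 of 15 (median 0.68, or 0.28 without treated 4 and 0.31 without the pair), with a summed level of 55.1 to 92.9 CPM in treated and 32.4 to 61.7 CPM in control libraries. None of these genes passed the edgeR threshold.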
